A study of Homo sapiens with 10 samples.

Results

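The short arm of chromosome 9 carries some of the best known genes of cancer and immunity, and here it is described through its open chromatin. Its members were taken as every peak of the deposited list that lies on chromosome 9 and ends below position 43000000 of the human build hg38. There were 1320 such peaks of 161934 in the whole list (0.815%), against 5238 on the rest of the chromosome. The list comes from ATAC-seq, in which the transposase Tn5 cuts accessible DNA and leaves sequencing adapters at the cuts. The cells were of the human breast cancer line MDA-MB-231, which is triple-negative (it lacks both hormone receptors and HER2), as 5 libraries labelled control and 5 labelled ARID1A knockout. ARID1A is a subunit of the SWI/SNF chromatin remodelling complex. The labels do not say how the knockout was made, whether it is a single clone, or whether the replicates were separate cultures. The list has no value per library, so no difference between the genotypes was measured, depth is unknown here, and every value below is a description without replicate error. How the 10 libraries were combined into 1 list is not given in the sources used here. Where no peak is reported, this says no more than that the list has no entry there.

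Most active genes have an accessible promoter, the stretch around the transcription start where the polymerase is loaded, and enhancers in introns and between genes are accessible in the cell types that use them. Starts in CpG islands, which are rich in G, C and the dinucleotide CpG, tend to be accessible in most tissues, while starts poor in CpG open mainly where the gene is used. The arm holds JAK2, a kinase that carries cytokine signals to STAT factors. Beside it lie CD274 and PDCD1LG2, which encode the PD-1 ligands PD-L1 and PD-L2. Further in lies the type I interferon cluster, most of whose genes are silent until a cell senses infection. The cell cycle inhibitors CDKN2A and CDKN2B lie next to MTAP, an enzyme of methionine salvage, in a block that is often deleted in tumours. MDA-MB-231 is known as a line that lacks CDKN2A. SMARCA2 is an ATPase of SWI/SNF, NFIB a transcription factor of lung and brain development, and PAX5 the factor that sets B cell identity.

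The results turn on which gene starts carry a peak, so the 250 bases before the start are shown for 5 genes, with each CpG in capitals. Sequences are from RefSeq (GRCh38.p14) and run 5′ to 3′ on the gene's strand. SMARCA2 has a peak over all 250 bases, and its stretch at chr9:2015097-2015346 (plus strand) holds 29 CpGs. The CDKN2A stretch (chr9:21995325-21995574, minus strand, 24 CpGs) and the CNTLN stretch (chr9:17134790-17135039, plus strand, 29 CpGs) are of the same kind but lie in the longest gaps of the arm. PAX5 (chr9:37034269-37034518, minus strand, 27 CpGs) has no peak at its start although its gene body is full of them. IFNB1, the gene of interferon beta (chr9:21077943-21078192, minus strand), has 0 CpGs and stands for the interferon genes.
SMARCA2: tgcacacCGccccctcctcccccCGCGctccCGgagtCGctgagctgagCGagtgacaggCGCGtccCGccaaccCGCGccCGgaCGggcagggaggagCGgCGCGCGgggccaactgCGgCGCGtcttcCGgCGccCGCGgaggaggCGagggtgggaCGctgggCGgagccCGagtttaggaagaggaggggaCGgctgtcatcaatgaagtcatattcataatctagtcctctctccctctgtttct
CDKN2A: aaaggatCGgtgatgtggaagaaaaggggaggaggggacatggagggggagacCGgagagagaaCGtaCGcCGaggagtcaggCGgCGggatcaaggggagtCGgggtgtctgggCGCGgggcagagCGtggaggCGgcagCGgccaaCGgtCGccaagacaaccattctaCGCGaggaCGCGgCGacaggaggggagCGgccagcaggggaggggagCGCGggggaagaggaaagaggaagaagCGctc
CNTLN: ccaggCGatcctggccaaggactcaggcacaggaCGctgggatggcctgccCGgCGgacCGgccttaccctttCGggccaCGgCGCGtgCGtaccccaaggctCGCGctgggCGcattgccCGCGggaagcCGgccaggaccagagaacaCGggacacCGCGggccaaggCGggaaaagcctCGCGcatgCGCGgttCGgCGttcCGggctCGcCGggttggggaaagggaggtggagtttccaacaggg
PAX5: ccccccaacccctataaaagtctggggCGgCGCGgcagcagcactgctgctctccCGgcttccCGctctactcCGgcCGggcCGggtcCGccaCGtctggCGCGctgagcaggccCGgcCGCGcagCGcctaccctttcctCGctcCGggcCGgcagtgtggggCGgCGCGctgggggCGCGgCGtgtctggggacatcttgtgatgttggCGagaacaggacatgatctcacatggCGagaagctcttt
IFNB1: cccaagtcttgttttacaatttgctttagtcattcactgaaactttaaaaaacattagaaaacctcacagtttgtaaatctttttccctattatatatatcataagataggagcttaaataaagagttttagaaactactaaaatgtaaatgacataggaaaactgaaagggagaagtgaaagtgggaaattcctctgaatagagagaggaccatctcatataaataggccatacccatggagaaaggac
By GC content, the first 4 ran from 66.8% in CDKN2A to 70.8% in CNTLN, while the IFNB1 stretch had 32.4%. A peak covered all bases of the SMARCA2 stretch and 0 bases of the other 4.

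A second pair was chosen because of its motif matches, so the shares over all promoters given below are background and not a test. CD274 is shown before its only RefSeq start (chr9:5450292-5450541, plus strand). NFIB is shown before an inner start that a peak covers (chr9:14322388-14322637, minus strand). Capitals mark matches on either strand to 6 motifs: the AP-1 site TGANTCA, the interferon response element core (TTTC and TTTC with 2 bases between), the STAT site TTCNNNGAA, the GC box GGGCGG, the ETS core CCGGAAG and the CCAAT box CCAAT.
CD274: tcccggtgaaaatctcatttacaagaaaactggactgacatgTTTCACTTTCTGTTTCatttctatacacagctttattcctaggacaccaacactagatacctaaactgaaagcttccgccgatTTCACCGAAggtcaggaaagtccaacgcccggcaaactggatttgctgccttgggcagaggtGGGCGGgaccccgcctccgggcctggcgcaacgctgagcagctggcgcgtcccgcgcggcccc
NFIB: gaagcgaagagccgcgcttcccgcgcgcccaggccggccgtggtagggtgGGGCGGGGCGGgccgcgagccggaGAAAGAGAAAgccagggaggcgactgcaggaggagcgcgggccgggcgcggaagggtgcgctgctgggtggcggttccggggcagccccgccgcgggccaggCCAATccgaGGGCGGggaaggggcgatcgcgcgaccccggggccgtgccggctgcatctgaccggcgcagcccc
The CD274 stretch held 2 overlapping interferon response element cores, 208 to 199 and 202 to 193 bases before the start. It also held 1 STAT site at 125 to 117 bases and 1 GC box at 63 to 58 bases. Of its 250 bases, 196 lay inside the start peak. The NFIB stretch held 1 interferon response element core, 1 CCAAT box and 3 GC boxes, of which 2 overlap by 1 letter. It lay wholly inside a peak. Among 15812 RefSeq promoters of the same 250-base length, 2.71% held the interferon response element core, 6.12% the STAT site and 55.8% the GC box. The AP-1 site, ETS core and CCAAT box were held by 5%, 11.7% and 34.4%. The AP-1 site was in neither stretch. Other starts differed. The stretches before the 4 RefSeq starts of JAK2 held neither the interferon response element core nor the STAT site. An inner start of SMARCA2 held the core, and among the 10 NFIB starts only that shown held it. A match says only that these letters stand in the window.

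Along the arm, peaks were few and uneven. The 1320 peaks made 30.7 per Mb over 43 Mb. Among windows of 1 Mb that touch a protein-coding gene, the arm's 39 windows held a median of 25 peaks (interquartile range 5 to 48, range 0 to 104). Windows of the rest of chromosome 9 held a median of 63 (77 windows), and those of the rest of chromosomes 1 to 22 and X a median of 55 (2612 windows, interquartile range 32 to 82). Set among the chromosomes with chromosome 9 split in this way, the arm had the second lowest median of 24, after chromosome X with 19. It had the highest share of windows with at most 5 peaks, at 28.2% (11 of 39), followed by chromosome X with 18.4% and chromosome 21 with 17.6%. Over the rest of the genome that share was 2.79%. Windows with 0 peaks numbered 4 of 39 on the arm and 0.651% elsewhere. The line is aneuploid and copy number was not measured, so effects of DNA amount and of accessibility on these densities cannot be told apart.

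**Figure D1:**
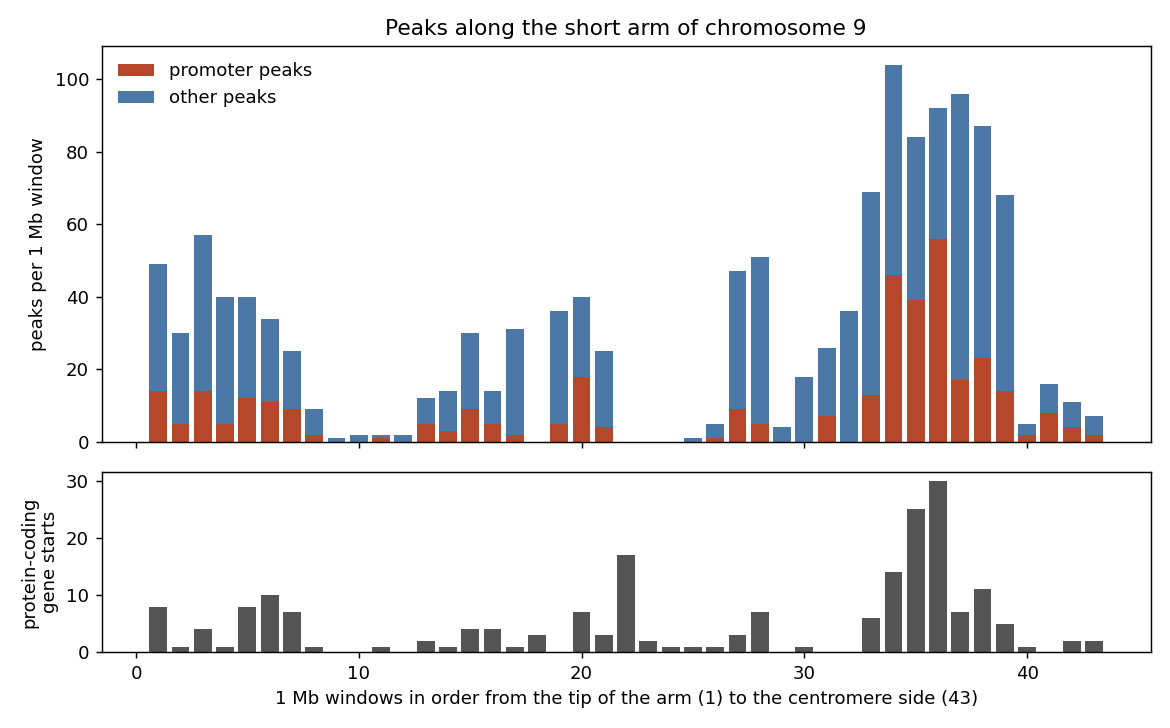
Peaks per 1 Mb window along the arm (upper panel, bars split into peaks annotated as promoter and all others) and the number of protein-coding genes that start in each window (lower panel), ordered from the tip of the arm to the centromere side. The densest window holds 104 peaks, and the window with 17 gene starts, which holds the interferon cluster, has none.

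The peaks were concentrated in a dense stretch on the centromere side. From 31 to 39 Mb there were 636 peaks (48.2% of the arm's), or 79.5 per Mb, with 98 protein-coding genes. The 5 densest windows all lay there. The window from 33 to 34 Mb held 104 peaks, with 14 gene starts that include the chaperone DNAJA1, the splicing factor SMU1, the galactosyltransferase B4GALT1, the anti-apoptotic BAG1 and the water channels AQP3 and AQP7. The window from 35 to 36 Mb, with VCP, TLN1, CA9, TPM2 and 26 other gene starts, held 92 peaks, and 56 of these were promoter peaks. The window from 36 to 37 Mb held 96 peaks with only 7 gene starts, among them CLTA, RECK, GNE and MELK, and 79 of its peaks were outside promoters. Windows from 37 to 38 Mb (PAX5, GRHPR, ZBTB5) and from 34 to 35 Mb (UBAP2, IL11RA, CCL19, CCL21) held 87 and 84. At the other end, the window from 17 to 18 Mb (starts of CNTLN, SH3GL2 and ADAMTSL1) and the 3 windows from 21 to 24 Mb held 0 peaks. The windows from 8 to 9 Mb, inside PTPRD, and from 24 to 25 Mb, with IZUMO3, held 1 each.

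The outer 7 Mb, with SMARCA2, GLIS3, JAK2 and CD274, held 275 peaks, or 39.3 per Mb. From 7 to 13 Mb the count dropped to 28 peaks, 4.67 per Mb, over a stretch that contains the giant gene PTPRD. The next 13 Mb, from NFIB to the interferon and CDKN2A region, held 196 peaks (15.1 per Mb). Between 26 and 31 Mb, with C9orf72 and LINGO2, there were 146 peaks, and 56.2% of them were intergenic. The last 4 Mb before the centromere held 39 peaks (9.75 per Mb). That stretch, like the tip with FOXD4, holds families of near-identical copies (CNTNAP3 and CNTNAP3B, SPATA31A, ZNG1, FOXD4L). Reads of such genes cannot be placed surely, so their counts are uncertain. The bounds of these 6 stretches were set after the counts had been seen.

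Windows were then compared at like numbers of gene starts. In windows with 10 or more gene starts the arm's median was 85.5 peaks, against 88.5 in the rest of the genome. With 5 to 9 gene starts the medians were 50 and 62. With 1 to 4 gene starts they were 12 (21 windows) and 40 (1115 windows), and 14 on the arm without the windows that the 2 longest gaps touch. Windows without a gene start held medians of 10 and 12, and 4 on the arm (7 windows) without those that the 2 gaps touch. The median for 10 or more gene starts was thus close to that elsewhere, and the median for 1 to 4 was lower.

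Single peaks of the arm were much like those elsewhere. Their median length was 536 bases (interquartile range 336 to 860, range 125 to 3366), against 539 bases in the rest of the genome. Together they covered 862 kb. A transcript start lay inside 185 of them (14%, against 12.5%). Peaks of 2000 bases or more made up 1.21%, against 1.07%. By the list's annotation 370 peaks were promoter peaks, within 3000 bases of a transcript start (28.0%, Wilson 95% interval 25.7 to 30.5, against 30.4%). Introns held 441 (33.4%, against 34.1%) and distal intergenic sequence 432 (32.7%, interval 30.2 to 35.3, against 29.5%). The remaining 77 peaks were in exons (28), 3' UTRs (23), just downstream of genes (22) and in 5' UTRs (4). These intervals cover counting error over peaks only.

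The longest peaks sat mostly on promoters. SMARCA2 had the longest, 3366 bases over its start, followed by VLDLR, a lipoprotein receptor (2627 bases), and PLIN2, a coat protein of lipid droplets (2415 bases). The divergent pair TOPORS and SMIM27 shared a peak of 2390 bases over both starts. Others lay at the starts of ANKRD18A (2397 bases) and TESK1 (2337 bases), and at inner RefSeq starts of NFIB (2301 bases). A peak of 2367 bases lay inside ADAMTSL1, over a transcript start that the list annotates. Only 2 of the 10 longest were in introns, 1 in ACO1, the cytosolic aconitase that also regulates iron (2359 bases), and 1 in SHB, a signalling adaptor (2335 bases). Far from genes, 170 peaks (12.9%, against 11.5% elsewhere) lay over 50 kb from a transcript start. The farthest was a peak of 1373 bases at 30198070 to 30199442, 360 kb from the nearest listed start.

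Long stretches without any peak made up much of the arm. Of 1319 gaps between neighbouring peaks on the arm, 9 were over 500 kb, or 6.82 per 1000 gaps, against 148 of 160498 (0.922 per 1000) in the rest of the genome. Where peaks are few there are few gaps to divide by, which raises such a rate. The median gap was 9.25 kb against 7.66 kb. The 9 long gaps added up to 11.4 Mb (26.4% of the arm) and the 2 longest to 5.88 Mb (13.7%). The 9 gaps touched 34 protein-coding genes in all. In the rest of the genome the 148 long gaps added up to 197 Mb, and their share of the sequence was not computed.

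**Figure D2:**
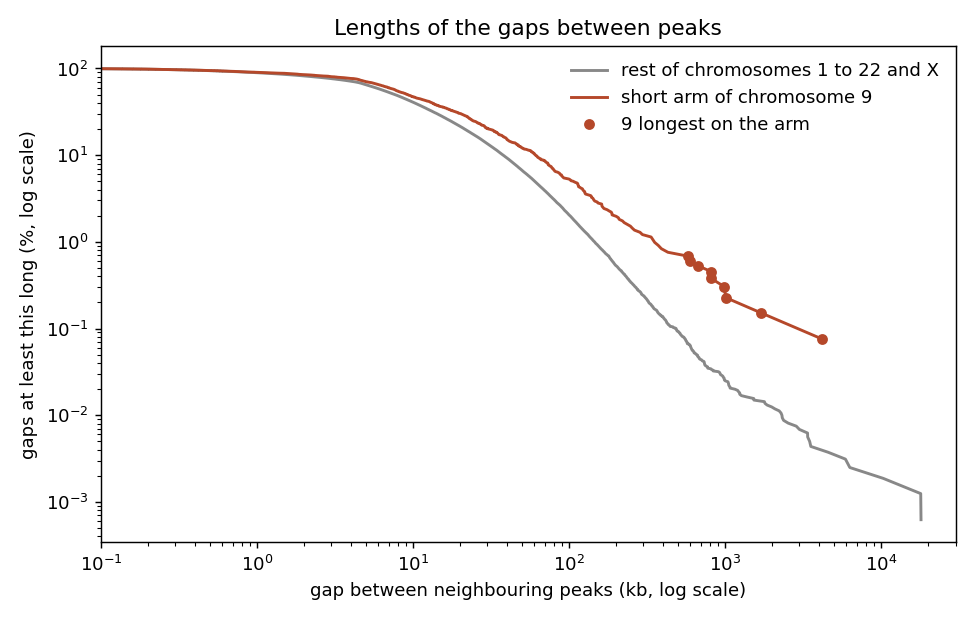
Share of gaps between neighbouring peaks that are at least as long as the length on the horizontal axis (both axes logarithmic), for the arm and for the rest of chromosomes 1 to 22 and X, with points for the 9 longest gaps of the arm. The curve of the arm lies above the other from about 5 kb on, and its last point is the gap of 4.18 Mb.

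The longest gap ran from 20732855 to 24912766 (4.18 Mb). Its outer edge lay inside FOCAD, the gene of focadhesin, which held 5 peaks in its first 77.2 kb while the other 263 kb of the gene fell into the gap. The last peak before the gap was an intron peak of 786 bases (20732069 to 20732854). The 500 kb before the gap held 23 peaks, and MLLT3, a reader of acylated histones, 110 kb away, had a start peak of 2195 bases. On the other side came a lone intergenic peak of 403 bases at 24912767 to 24913169. The 500 kb beyond the gap held 3 peaks, and the next protein-coding gene, TUSC1, lay 764 kb further on.

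Wholly inside that gap lay 24 protein-coding genes. Interferon genes made up 16 of them: IFNB1, IFNW1, IFNE and 13 IFNA genes. The others were HACD4, an enzyme of very long fatty acid synthesis, KLHL9, a ubiquitin ligase adaptor, MTAP, CDKN2A, CDKN2B, DMRTA1, a DM-domain factor, ELAVL2, a neuronal RNA-binding protein, and IZUMO3, of the sperm protein family. By length it ranked 7 of 161817 gaps, and 4 of the 93 gaps over 500 kb that touch a protein-coding gene. The 3 longer ones, on chromosomes 9, 7 and 18, touched 3, 6 and 1 genes and no CpG-rich start. Among the 157 gaps over 500 kb it ranked 1 both in genes held and in CpG-rich starts held, with 5 such starts. A gap on chromosome 16 came next in CpG-rich starts, with 4. Whether reads can be placed in the gaps ranked here was not tested, so the ranks may not compare like sequence. In this list DNA that the cells have lost and DNA that is present but closed look the same and cannot be told apart.

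The second longest gap ran from 16443055 to 18143126 (1.70 Mb) and had peaks close together on either side: 32 peaks lay in the 500 kb before it and 26 in the 500 kb after it. Its outer edge was an intron peak of 658 bases in BNC2, a zinc finger gene (16442397 to 16443054). Its inner edge was an intron peak of 277 bases in ADAMTSL1, a secreted matrix protein gene (18143127 to 18143403). CNTLN, a centrosomal protein gene of 394 kb, and SH3GL2, which encodes the synaptic vesicle protein endophilin, lay wholly inside. The outermost starts of BNC2 and ADAMTSL1 fell into the gap as well. Outside the gap BNC2 had 6 peaks and ADAMTSL1 had 34. CpG-rich starts in it were 3, those of BNC2, CNTLN and SH3GL2, which ranked 3 among the 157 gaps. By length it ranked 25 of all gaps and 9 of the 93 that touch a gene.

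The next gaps were of another kind, in sequence with few gene starts. From 7368837 to 12329264, a stretch of 4.96 Mb, the list held 8 peaks (1.61 per Mb), and 4 of the 9 long gaps, with a gap of 430 kb before DMAC1, fell there. PTPRD, a receptor phosphatase of 2299 kb that acts at synapses, lay within it. Its outermost start, which is CpG-rich, carried a peak of 550 bases (10612522 to 10613071). Only 3 other peaks lay in the gene, and 3 gaps of 991, 814 and 669 kb touched it. The gap of 991 kb began at DMAC1, a mitochondrial assembly factor, whose start had a peak of 809 bases. The gap of 1.01 Mb between PTPRD and TYRP1 held no gene. LINGO2, another long neuronal gene, carried a gap of 813 kb (28265002 to 29078281). TUSC1 stood at the end of a gap of 583 kb, with a peak of 1417 bases over its start. The gap of 593 kb from 41772851 to 42365460 held CNTNAP3B and SPATA31A6, which have near-identical copies.

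Gene starts were scored next. A start counted as marked when a peak lay within 1000 bases of the gene's outermost 5' boundary. Of 214 genes with a determined state, 137 were marked (64.0%, exact 95% interval 57.2 to 70.4), against 71.6% of all 19575 protein-coding genes. Of the 77 unmarked genes, 24 start in the longest gap and 4 in the next, where by the definition of a gap no start can be marked. Genes that no peak overlapped or came within 1000 bases of were 51 of 216 (23.6%), against 12.1% over all genes. These 51 include the 24 genes wholly inside the longest gap and the 2 wholly inside the next, which have no peak by the definition of a gap. Genes are not replicates, and these intervals cover counting error only.

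Whether a start was marked went with its CpG content. Starts were called CpG-rich where the 300 bases around the RefSeq start had at least 55% GC and a CpG number of at least 0.65 of that expected from its bases. This class was known for 188 of the 216 arm genes (87.0%) and for 79.2% of all genes, and was chosen after the list had been seen. On the arm 92 of 108 CpG-rich starts had a peak (85.2%, interval 77.1 to 91.3), against a background of 91.2%. CpG-poor starts had one in 33 of 80 (41.2%, interval 30.4 to 52.8), against 51.7%. The 2 longest gaps, which hold no peak by definition, contained 8 of the 16 unmarked CpG-rich starts and 16 of the 47 unmarked CpG-poor ones.

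**Figure D3:**
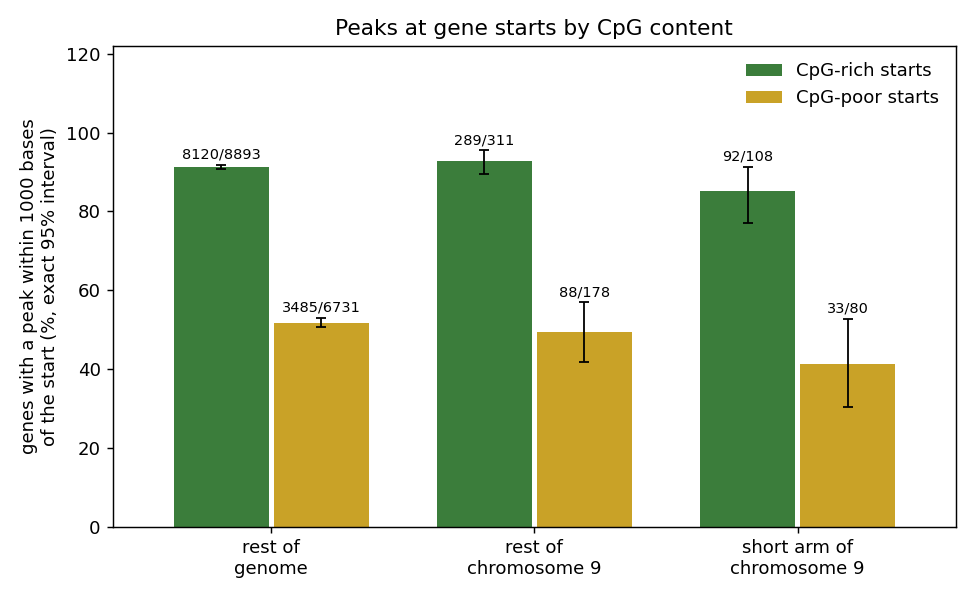
Share of protein-coding genes with a peak within 1000 bases of the RefSeq start, for CpG-rich and CpG-poor starts, in the rest of the genome, on the rest of chromosome 9 and on the short arm. Error bars are exact 95% intervals and the numbers are genes with a peak over genes counted. On the arm 92 of 108 CpG-rich starts and 33 of 80 CpG-poor starts have a peak.

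Outside those gaps 8 CpG-rich starts lacked a peak. DMRT1 and DMRT2, DM-domain factors of gonad and somite development, were among them, although DMRT1 had 10 peaks in its body and DMRT2 a peak at another RefSeq start. PAX5 lacked one with 30 peaks in its body, and SLC24A2, a neuronal ion exchanger, with 16. CNTFR, the receptor subunit for ciliary neurotrophic factor, had none at the RefSeq start examined but a peak of 1114 bases within 1000 bases of its outermost boundary. FOXD4, ZNG1F and CNTNAP3B have near-identical copies, and no peak lay at any of these 3.

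The gene lists were described by where their peaks lie. Of 20 broadly expressed genes 19 had a start peak (95%, exact interval 75.1 to 99.9), against the 71.6% of all genes. CpG-rich starts made up 15 of the 20. Over all genes 91.2% of CpG-rich starts had a peak, and the share of the list was near that. Start peaks in this list measured, for example, 1076 bases at RPS6, a ribosomal protein, and 1375 bases at VCP, an ATPase of protein quality control. Those at DNAJA1 and at TLN1, which links integrins to actin, measured 1467 and 1493 bases. The exception, the ubiquitin conjugase UBE2R2, had a peak at another RefSeq start. The peak at TLN1 also covered the start of CREB3, a membrane-bound transcription factor that starts on the other strand.

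Of 12 genes used as markers of other tissues, 4 had a start peak (33.3%, exact interval 9.92 to 65.1), against 71.6% of all genes and 51.7% of CpG-poor starts. Only 1 of the 12 has a start classed as CpG-rich. Melanocyte genes had none at the start, and MLANA had none at all. Among the lymphoid genes CD72 had a peak of 1143 bases at its outermost start, with none at the inner RefSeq start examined for CpG content, and the chemokine gene CCL19 one of 345 bases, while PAX5 had none at its start. TEK, the endothelial angiopoietin receptor, lacked a start peak but held 10 peaks in its body. The retinal potassium channel gene KCNV2 had a peak of 1490 bases within 1000 bases of its start, and AQP7, the glycerol channel of fat, one of 707 bases. CER1, TPD52L3 and MLANA had no peak in the gene or 1000 bases around it. These genes cannot check the identity of the line, for which the arm holds no defining marker.

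**Figure D4:**
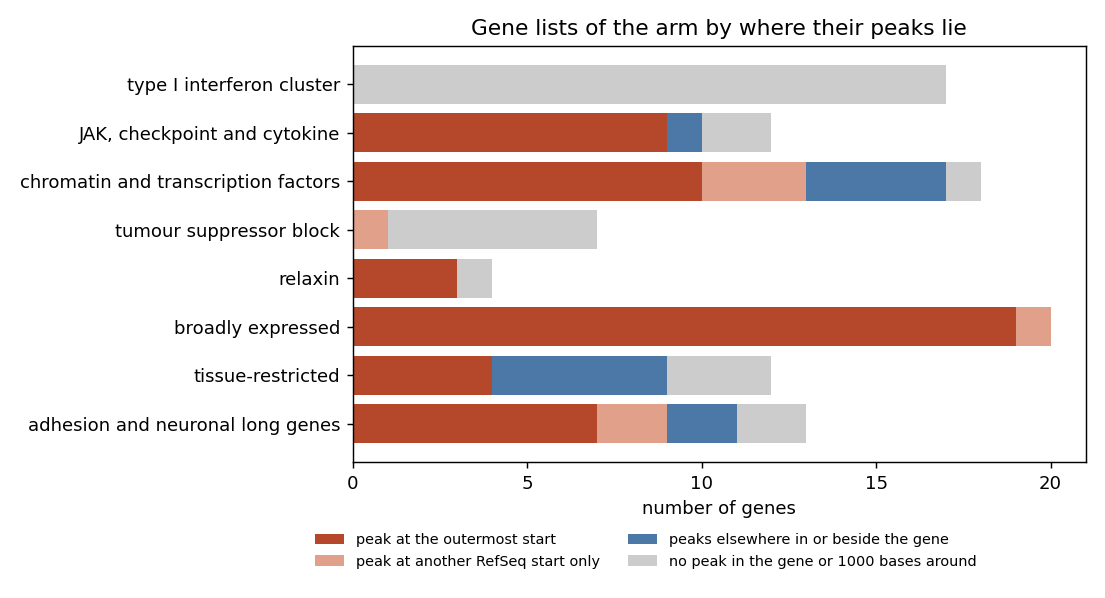
Number of genes in 8 lists of the arm by where their peaks lie: at the outermost start, at another RefSeq start only, elsewhere in or beside the gene, or nowhere within 1000 bases. All 17 interferon genes fall in the last class, and 19 of 20 broadly expressed genes in the first.

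No interferon gene of the arm had a peak, and 16 of the 17 lie in the longest gap. All 17 members were without one in the gene and 1000 bases around it, against 12.1% of all genes. For the 16 in the gap this follows from the definition of a gap. The remaining gene, IFNK, the interferon of keratinocytes, lies outside the gap at 27524290 to 27526498 in a window with 51 peaks. Over all genes 51.7% of CpG-poor starts had a peak, so a single start without one is common. None had a CpG-rich start: over the 14 with a RefSeq promoter entry, GC content ran from 29.7% in IFNE to 39.7% in IFNA13. The sensor RIGI, which detects viral RNA and leads to interferon induction, had 8 peaks in its body and a start peak of 1615 bases at 32525102 to 32526716.

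Among the 7 genes of the tumour suppressor block none had a peak at the outermost start, while 71.6% of all genes had one. Of these genes 6 lie within the longest gap and so had no peak at all by the definition of a gap. Only FOCAD had peaks, 1 of them at an inner RefSeq start that is CpG-rich. A peak also lay within 3000 bases of its outermost start. The block's other CpG-rich starts were those of KLHL9, CDKN2A, CDKN2B and ELAVL2. MTAP just missed that class, with 53.0% GC and a CpG ratio of 0.715.

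Of the JAK, checkpoint and cytokine genes 9 of 12 had a start peak (75%, exact interval 42.8 to 94.5), near the 71.6% of all genes. These included the cytokine receptor genes IL11RA (1296 bases) and CNTFR (1114 bases) and the chemokine genes CCL19 (345 bases) and CCL21 (336 bases). IL33, an alarmin cytokine, had 1 peak in its body, and CCL27 and SIT1 had none, though a peak lay within 3000 bases of the start of each. In the relaxin family, RLN1 and RLN2 shared a peak of 438 bases, INSL6 had a start peak of 351 bases, and the placental INSL4 had none.

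Chromatin and transcription factor genes had a start peak in 10 of 18 cases (55.6%, exact interval 30.8 to 78.5, against 71.6% of all genes). CpG-rich starts made up 13 of the 18, and over all genes 91.2% of CpG-rich starts had a peak. With any RefSeq start counted, 13 of 18 were marked, against 14699 of the 19575 genes with a determined state. Those with one included SMARCA2, MLLT3, RFX3, a factor of ciliogenesis (1918 bases), UHRF2, a reader of modified cytosine (1668 bases), PSIP1 (1445 bases) and ZBTB5 (2204 bases). GLIS3, a zinc finger factor of pancreas and kidney, had a peak of 1314 bases at its outermost boundary. It shared this peak with the start of the glutamate transporter SLC1A1 on the other strand. The GLIS3 start examined for CpG content lies further inside, at 4298496, and also had a peak within 1000 bases. The 8 without were DMRT1, DMRT2, DMRT3, DMRTA1, BNC2, NFIB, KDM4C and PAX5. Of these, DMRTA1 starts in the longest gap and BNC2 in the second longest, so both are unmarked by the definition of a gap. KDM4C, a histone demethylase, had a peak at a CpG-rich inner start.

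Long adhesion and neuronal genes were mixed, with 7 of 13 marked at the outermost start (53.8%, exact interval 25.1 to 80.8, against 71.6% of all genes) and 9 at any RefSeq start. CpG-rich starts made up 10 of the 13, and over all genes 91.2% of CpG-rich starts had a peak. The outermost starts of CNTLN, SH3GL2 and ADAMTSL1 lie in the second longest gap and so are unmarked by definition. MPDZ, a scaffold of tight junctions (1664 bases), KANK1 (1179 bases), VLDLR and PTPRD were marked. SH3GL2 and CNTLN lie wholly inside the second longest gap and so had no peak at all. FREM1, a matrix gene, had 2 peaks in its body but none at the start.

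Peaks in gene bodies were concentrated in a few genes. GLIS3 and ADAMTSL1 held 34 each, PAX5 30, SHB 28 and NFIB 22, while the median arm gene held 1 and the median gene of the genome 2. Per 10 kb of gene, SHB held 1.83, PAX5 1.49 and GLIS3 0.510 peaks. The median over 10991 genes of at least 20 kb was 0.719, and over the arm's 106 such genes 0.410. The density of PAX5 was thus above that median, and that of GLIS3 below it.

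SMARCA2 (2015347 to 2193620, plus strand, 178 kb) held 11 peaks, or 0.617 per 10 kb, near the middle of all genes of at least 20 kb (percentile 43). The start peak of 3366 bases (2014703 to 2018068) was the longest of the arm. A second long peak, of 1285 bases at 2157268 to 2158552, lay 142 kb inside the gene and covered 2 further RefSeq starts, from which a short form is transcribed. Peaks covered 3 of the 4 RefSeq starts. The other 9 peaks were 148 to 630 bases long, and 6 of them were in the promoter class because the list counts any annotated transcript start.

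JAK2 (4984390 to 5129948, plus strand, 146 kb) had a single peak. It was 1425 bases long (4984350 to 4985774), lay over 3 of the 4 RefSeq starts, and no other peak lay in the gene or within 50 kb of it. At 0.0687 per 10 kb JAK2 was at percentile 3.58 among genes of at least 20 kb. It was thus marked at its start and nowhere else.

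CD274 (5450542 to 5470554, plus strand, 20 kb) held more, with 4 peaks in a short gene (2 per 10 kb, percentile 95.2). At 20013 bases it only just enters the genes of at least 20 kb, and in so short a gene each peak weighs more per 10 kb. Counting only peaks of at least 539 bases left 1 at CD274 and 1 at JAK2. The start peak was 625 bases long (5450346 to 5450970) and held the STAT site and the GC box shown above. The interferon response element cores lay at its upstream edge, 1 outside the peak and 1 across the edge. Peaks of 166 and 471 bases followed 4.79 and 8.56 kb inside the gene, and 1 of 245 bases lay in the 3' UTR. Within 50 kb of the gene there were 11 peaks, of which the longest lay at the start of PDCD1LG2. Between the genes lay peaks of 1456 bases (5493085 to 5494540) and of 1279 bases (5499939 to 5501217). The PDCD1LG2 start peak measured 2000 bases (5508716 to 5510715). PLGRKT, a plasminogen receptor gene on the other side of CD274, had a promoter peak of 1442 bases.

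NFIB (14081843 to 14532077, minus strand, 450 kb) held 22 peaks in its body and 1 just beyond its end (0.489 per 10 kb, percentile 33.7). None lay at the outermost start, which is CpG-poor, and the first 66.2 kb had no peak. The longest peak, 2301 bases at 14314007 to 14316307, lay 216 kb inside and covered 4 RefSeq starts. Next to it a peak of 986 bases (14322152 to 14323137) covered the start whose sequence is shown above. In all 5 of 10 RefSeq starts were covered. Introns held 11 of the peaks, with the longest of these, 1331 bases, at 14237875 to 14239205. The list's own annotation calls 5 peaks intergenic that lie within RefSeq's NFIB, between its outermost start and the inner ones.

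PAX5 (36833269 to 37034268, minus strand, 201 kb) had 30 peaks in its body, 1 beyond its end and 0 at its start. At 1.49 per 10 kb it was at percentile 85.7. Introns held 26 of the peaks. The longest, 1461 bases at 37024770 to 37026230, was also the nearest to the start, 8.04 kb away in the first intron. The remaining peaks were 178 to 971 bases long, and the largest stretch without one in the gene was 26.9 kb. The CpG-rich start shown above had none of them.

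**Figure D5:**
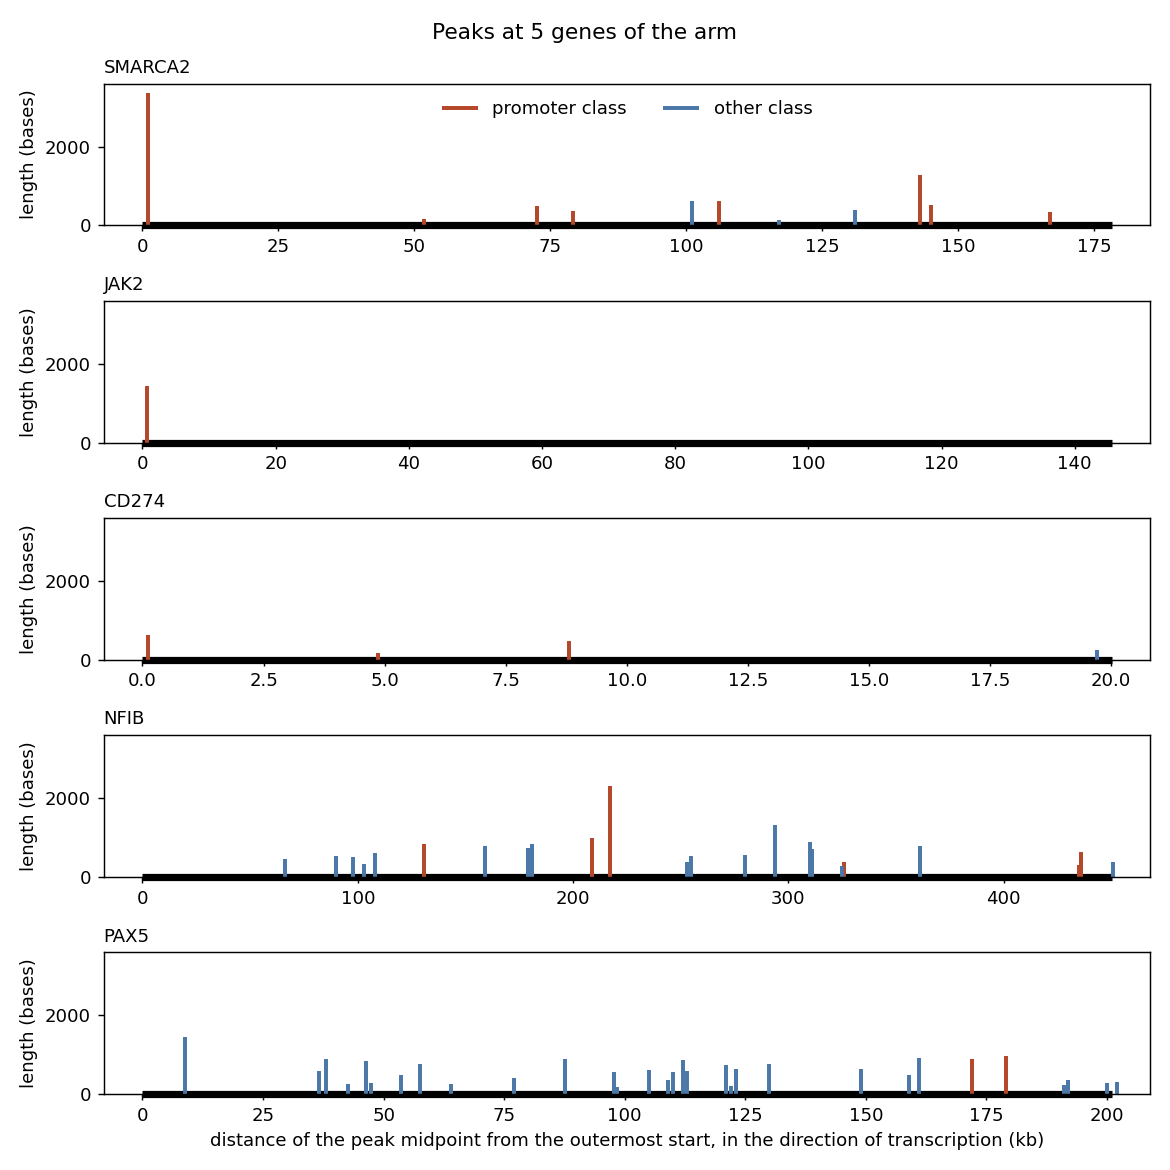
Peaks at SMARCA2, JAK2, CD274, NFIB and PAX5, with the distance of each peak's midpoint from the outermost start in the direction of transcription (horizontal axis, kb, a scale for each gene) and the length of the peak (vertical axis, bases). The black bar is the gene, and colours separate the promoter class from all others. JAK2 has 1 peak at its start and PAX5 has 30 in its body with none at the start.

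Of 19 miRNA hairpins on the arm, 6 lay within 1000 bases of a peak. The share over all hairpins of the genome was not computed, so whether this count is low or high is not known here. MIR31 and MIR491, whose hairpins lie on either side of the outer edge of the longest gap, are shown with the seed (bases 2 to 8) of the 5p strand in capitals.
hsa-miR-491-5p: aGUGGGGAacccuuccaugagg
hsa-miR-31-5p: aGGCAAGAugcuggcauagcu
Their seeds differ. MIR31, known as a suppressor of invasion in breast cancer cells, lay inside the gap at 21512115 to 21512185, 779 kb from the nearest peak. MIR491 lay in FOCAD at 20716105 to 20716188, 5.96 kb from a peak.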

How the data were processed

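Per the submitters' processing notes, Bowtie2 2.3.5.1, MACS2 2.2.6 and the build hg38 were used. What is not given in the sources used here is the calling threshold, any shift of reads, how duplicates were treated, how libraries were merged and which annotation was used. Peak number, edges and lengths depend on these choices. The deposited list has 17 columns, per the file headers, with position, length, annotation class and nearest transcript, and 0 columns with a value per library. No test, depth or comparison of the genotypes was therefore possible. Labels put 5 libraries in each group.

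The members, gene lists and rule for named genes were chosen with earlier results of these data known. Named genes are CD274, JAK2, SMARCA2, NFIB and PAX5, those at the 10 longest gaps, the 5 densest and 5 sparsest windows, the 10 longest peaks and the 10 genes with most body peaks, and the list members. Other genes were named after their values were seen.

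Genes are the 19974 protein-coding genes of a RefSeq table (GRCh38.p14) on chromosomes 1 to 22 and X, matched by position. Strand came from RefSeq promoters for 15812 genes and from the list's transcripts (overlap of at least 0.5 of the union) for 2927. For the other 1235 a state was set only where both ends or neither had a peak, which left 2 arm genes out. The 16 arm peaks of 2000 bases or more were counted by the length column, which equalled end minus start plus 1 in all 161934 rows. Alternatives were longer peaks, merged peaks, other windows and other definitions of a start. Lookups were tested on 1000 simulated intervals, and 1000 were found as by brute force. Shares carry Wilson (peaks) or exact (genes) 95% intervals. Python 3.11.15, numpy 2.4.6, pandas 2.3.3 and scipy 1.17.1 were used.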

Additional observations from a re-analysis of the deposited data

How the results depend on the processing

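No paired analysis was possible because values per library were not analysed here, and for that reason no library could be left out. Of 34 alternatives, 23 stayed within 1.5 times the main count or within its counting interval, and 11 moved. Counting only peaks of at least 539 bases, the median of the list, gave 15.2 peaks per Mb in place of 30.7, a promoter share of 35.4% in place of 28.0%, and 37 peaks at the 5 genes in place of 70. It left 11 gaps over 500 kb. The promoter share was 20.9% within 1000 bases of a start and 36.6% when counted in bases. With a threshold of 1 Mb there were 3 gaps in place of 9. Marked starts numbered 124 to 152 under the 4 alternatives, against 137. The densest window held 105 peaks with windows shifted by 500 kb. Of the alternatives, 2 were chosen after seeing the data: any RefSeq start (147 marked), and CpG-rich from 50% GC and a ratio of 0.6, which gave 90.5% in place of 92.0% of CpG-rich starts marked when those in the 2 longest gaps, unmarked by definition, were left out.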
